A study of Mus musculus with 18 samples.

Results

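The signal transducers and activators of transcription (STAT) Stat2, Stat3, Stat4, Stat5a, Stat5b and Stat6 and the Janus kinases (JAK) Jak1, Jak2 and Jak3 were followed in mouse bone marrow-derived macrophages. These 9 genes were taken by their symbols from 24059 symbols in the count tables. All cells came from C57BL/6J mice and were differentiated for 7 days in medium conditioned by L929 cells, a fibroblast line that secretes the macrophage growth factor CSF1. Treatment began on day 8. In the first count table, untreated cells stood beside cells given lipopolysaccharide (LPS), a bacterial cell wall component that activates macrophages. In the second table all 4 groups received LPS: LPS alone, reconstituted high-density lipoprotein (rHDL, CSL111) for 20 h before LPS, cholesterol loading with liposomes before LPS, and loading followed by rHDL and then LPS. Each group had 3 libraries, and the labels do not say whether these were separate cultures or animals, so the p-values measure the spread between libraries. The sources used here state neither the LPS dose nor its duration.

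The cytokine receptors that use Janus kinases have no kinase activity of their own. Janus kinases bound to their tails are activated when a cytokine joins the receptor chains, and they phosphorylate STAT proteins, which pair, enter the nucleus and bind DNA. Stat2 carries the type I interferon signal in a complex with Irf9 and another STAT, called ISGF3, which binds the interferon-stimulated response element (ISRE). Most other STAT pairs bind GAS sites. In macrophages, Stat3 serves IL-10 and IL-6, Stat4 serves IL-12, Stat5a and Stat5b serve GM-CSF, and Stat6 serves IL-4 and IL-13.

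Promoters are shown for Stat2 and Stat4 because these genes rose with LPS, were lower after rHDL, and were the only members whose promoter held the ISRE core. RefSeq start sites matched all 9 members with 12 promoters on GRCm38.p6, the mm10 assembly. Capitals mark the match to TTTCNNTTTC on either strand, within the 250 bases before the start site. The Stat2 promoter is chr10:128270248-128270497 on the plus strand, and the Stat4 promoter is chr1:52007990-52008239 on the plus strand.
Stat2: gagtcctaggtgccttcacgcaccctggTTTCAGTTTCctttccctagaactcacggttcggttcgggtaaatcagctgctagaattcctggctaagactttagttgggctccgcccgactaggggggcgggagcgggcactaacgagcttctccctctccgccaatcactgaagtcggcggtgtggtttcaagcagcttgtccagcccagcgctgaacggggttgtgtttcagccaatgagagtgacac
Stat4: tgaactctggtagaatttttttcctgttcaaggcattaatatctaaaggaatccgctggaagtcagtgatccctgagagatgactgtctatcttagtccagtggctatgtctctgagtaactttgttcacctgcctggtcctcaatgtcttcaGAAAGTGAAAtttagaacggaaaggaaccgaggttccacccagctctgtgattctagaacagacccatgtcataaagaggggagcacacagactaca
In Stat2 the match lay 222 bases before the start, and in Stat4 it lay on the minus strand, 97 bases before the start. A second Stat4 promoter, at chr1:51986898-51987147, held none. Of 32851 promoters of the same length, 978 (2.98%) held this core. The GAS form TTCNNNNGAA was found in 5.85% of all promoters and, among the members, in Stat2 as TTCCCTAGAA. The form TTCNNNGAA was found in 7.02% of all promoters and in no member. A match describes letters only, since binding was not measured.

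How much of each gene was counted decided what could be measured. The authors' tables have 1 row per transcript, and a read that fell on several rows entered none of them, so a transcript was counted only over exon bases that no other row holds. Stat2 (chr10:128270576-128292849) and Stat4 (chr1:52008244-52107184) had all of their 4394 and 2981 exon bases to themselves. Stat6 (chr10:127642986-127660987) had 98.2% of 3805 bases and Jak1 (chr4:101151974-101265282) had 92.5% of 5299 bases. Stat3 (chr11:100886810-100939511) had 3 rows that overlap throughout and 0 bases of its own. It was listed at 0 counts in all 18 libraries, which says nothing of its expression. The remaining members were counted over short stretches. These were 83 bases of 1 alternative 5′ untranslated exon of Jak2 (chr19:29252437-29252519) and 151 bases at the 3′ end of the shorter Jak3 transcript (chr8:71688163-71688313). Stat5a had 282 bases, of which 230 were untranslated and 52 coding. Stat5b had 519 and 187 bases in the first exons of its 2 transcripts. For these 4 genes a value describes that stretch and not the whole gene. Stat5a and Stat5b are also close copies that lie side by side, and how reads matching both were treated is not stated, so their values are uncertain.

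Depth was 11450243 to 16835472 counts a library for untreated and LPS cells, and 9464916 to 15607889 for the other table's libraries. Levels below are CPM, counts scaled to a common library size by the trimmed mean of M-values (TMM), given per library or as mean ± SD (n = 3). Differences are log2 fold changes ± standard error, called where the p adjusted by Benjamini-Hochberg was under 0.05 in edgeR's quasi-likelihood test over all genes. The macrophage markers were present: 9 of 10 fixed markers were in the tables, their summed CPM ran from 15013 to 38016, and only Itgam, with 3 bases of its own, was at 0. That sum was 22697 to 24552 with LPS alone, 15013 to 17294 after rHDL, 22192 to 23803 after loading and 19705 to 23573 after loading and rHDL. Most of it is Lyz2, at 14464, 12922 and 14360 CPM with LPS alone and 7933, 5724 and 5690 CPM after rHDL. Over all genes tested 18.4% were lower after rHDL and 18.1% higher. Of the 8 markers tested after rHDL 5 were lower, Lyz2 among them, and Cd68 (0.51) and Mpeg1 (0.18) were higher. The part of these changes in the results below was not tested. Levels set across the 2 tables carry no test. Both tables hold a group with LPS alone, and the means of these 2 groups differed for some members. Stat6 was at 328 CPM in the first and 191 in the second, Stat4 at 24.0 and 14.9, and Jak3 at 0.444 and 1.62. Stat2 was at 1074 and 1128 CPM. Some pathway genes named below differed more, in both directions. Osmr was at 0.253, 0 and 0.0867 CPM in the first and at 44.0, 32.2 and 39.0 in the second. Csf2 was at 112, 145 and 113 CPM and then 1.81, 3.54 and 1.85, and Cish at 269, 280 and 261 and then 39.3, 45.7 and 37.8. For such genes a change with LPS and a change after rHDL refer to unlike levels with LPS alone.

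LPS against untreated cells asks how the pathway's own genes respond to the stimulus. Of the 6 members that passed the low-count filter, 4 rose and 0 fell, where 72.9% of all 9576 genes tested were called, 35.3% higher and 37.6% lower. The members' median change was 1.62 on the log2 scale, against -0.05 over all genes. The 4 were Stat2, Stat4, Jak1 and Jak2, and each was called in all 14 alternative settings. Stat3, Stat5a and Jak3 did not pass the filter.

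Stat2 was at 110, 108 and 96.1 CPM in untreated cells and at 1119, 991 and 1112 CPM after LPS. Every LPS library was far above every untreated one. The change was 3.36 ± 0.09 (edgeR, adjusted p = 1.44e-10), a 10.2-fold rise. Jak1, the kinase shared by interferon, IL-6-family and common gamma chain receptors, was at 399, 408 and 389 CPM untreated and at 1145, 976 and 1097 CPM after LPS. It rose 2.69-fold, by 1.43 ± 0.08 (edgeR, adjusted p = 4.35e-08), and its groups did not overlap. Stat4 was a low gene, at 5.00, 5.83 and 10.3 CPM untreated and 21.6, 21.1 and 29.2 CPM after LPS. Its untreated libraries spread 2-fold, yet the groups did not overlap and the rise of 1.80 ± 0.23 passed the test (edgeR, adjusted p = 3.48e-05).

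Stat6 hardly differed. It was at 308, 308 and 293 CPM untreated and at 346, 315 and 322 CPM after LPS. The LPS libraries lay just above the untreated ones, by 0.11 ± 0.07, which did not pass the test (edgeR, adjusted p = 0.173). Scaled by library totals alone, Stat6 was instead lower with LPS, at -0.60 (adjusted p = 1.69e-05), a setting in which the median of all genes stood at -0.77.

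**Figure D1:**
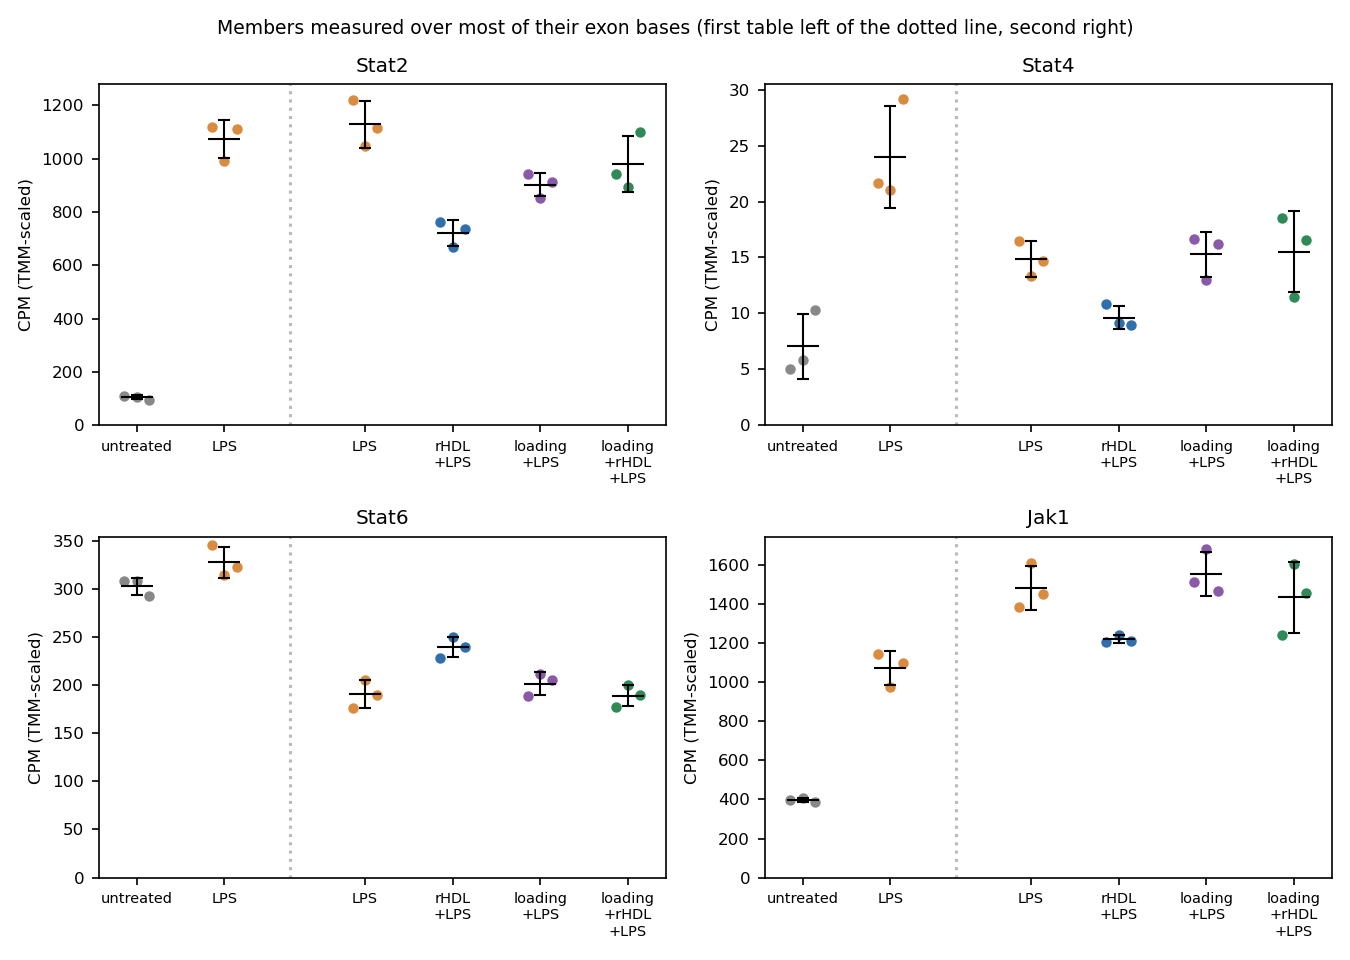
CPM of Stat2, Stat4, Stat6 and Jak1, the 4 members counted over most of their exon bases, in each library (points) with the group mean and SD (bars, n = 3); the dotted line parts the first table from the second. Stat2 and Jak1 stand higher in every LPS library than in untreated cells, and in the second table the rHDL group is the lowest for Stat2, Stat4 and Jak1 and the highest for Stat6.

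The alternative 5′ exon of Jak2, the kinase of GM-CSF, IL-12 and type II interferon receptors, held 4, 5 and 1 reads in the untreated libraries and 62, 45 and 46 after LPS. That is 0.185, 0.233 and 0.0680 CPM against 5.22, 3.57 and 3.99 CPM. The rise was 4.56 ± 0.35 (edgeR, adjusted p = 4.91e-07). The ratio of the summed counts, 153 to 10, was 24.5 with a 95% interval of 13.0 to 52.2 that covers counting error only. Reads from this exon alone cannot show whether the whole gene or the use of this exon changed.

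The stretch of Stat5a held 2, 0 and 2 reads untreated and 14, 9 and 14 after LPS, a ratio of 14.8 (95% interval 5.33 to 57.3, counting error only). Stat5a was below the filter, but it passed the test where the filter admitted it, at 3.73 with all genes that have any count (edgeR, adjusted p = 4.01e-06). It also passed when untreated replicate 1, 2 or 3 or LPS replicate 2 was left out, with adjusted p from 0.000203 to 0.000753. The stretch of Jak3, the kinase that pairs with the common gamma chain, held 10 reads in all untreated libraries and 16 after LPS, a ratio of 2.57 (1.09 to 6.33). With all genes that have any count, Jak3 did not pass the test (1.30, adjusted p = 0.0939).

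Stat5b as a sum of both rows did not pass the test, at 0.34 ± 0.30 (edgeR, adjusted p = 0.321). Its 2 rows are therefore also given apart. The row that starts at the downstream first exon (chr11:100822052-100822570) held 44 reads untreated and 6 after LPS, a ratio of 0.219 (0.0762 to 0.515). The row that starts at the upstream first exon (chr11:100850399-100850585) held 77 and 90, a ratio of 1.87 (1.37 to 2.58). The downstream row made up 36.4% of the reads of both rows in untreated cells (exact Clopper-Pearson 95% interval 27.8 to 45.6%) and 6.25% after LPS (2.33 to 13.1%). In the LPS libraries it held 3, 3 and 0 reads, and in the untreated ones 12, 22 and 10, so the groups did not overlap. These intervals cover counting error and not the spread between libraries. Counted by its larger row only, Stat5b passed the test with a rise of 0.90 (edgeR, adjusted p = 0.0249). In the second table, the downstream row's share was 34.8% with LPS alone, 19.6% after rHDL, 40.0% after loading and 42.9% after loading and rHDL, on 42 to 56 reads a group. The low share seen with LPS in the first table was thus not seen with LPS alone in the second, where it stood near the 36.4% of untreated cells.

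**Figure D2:**
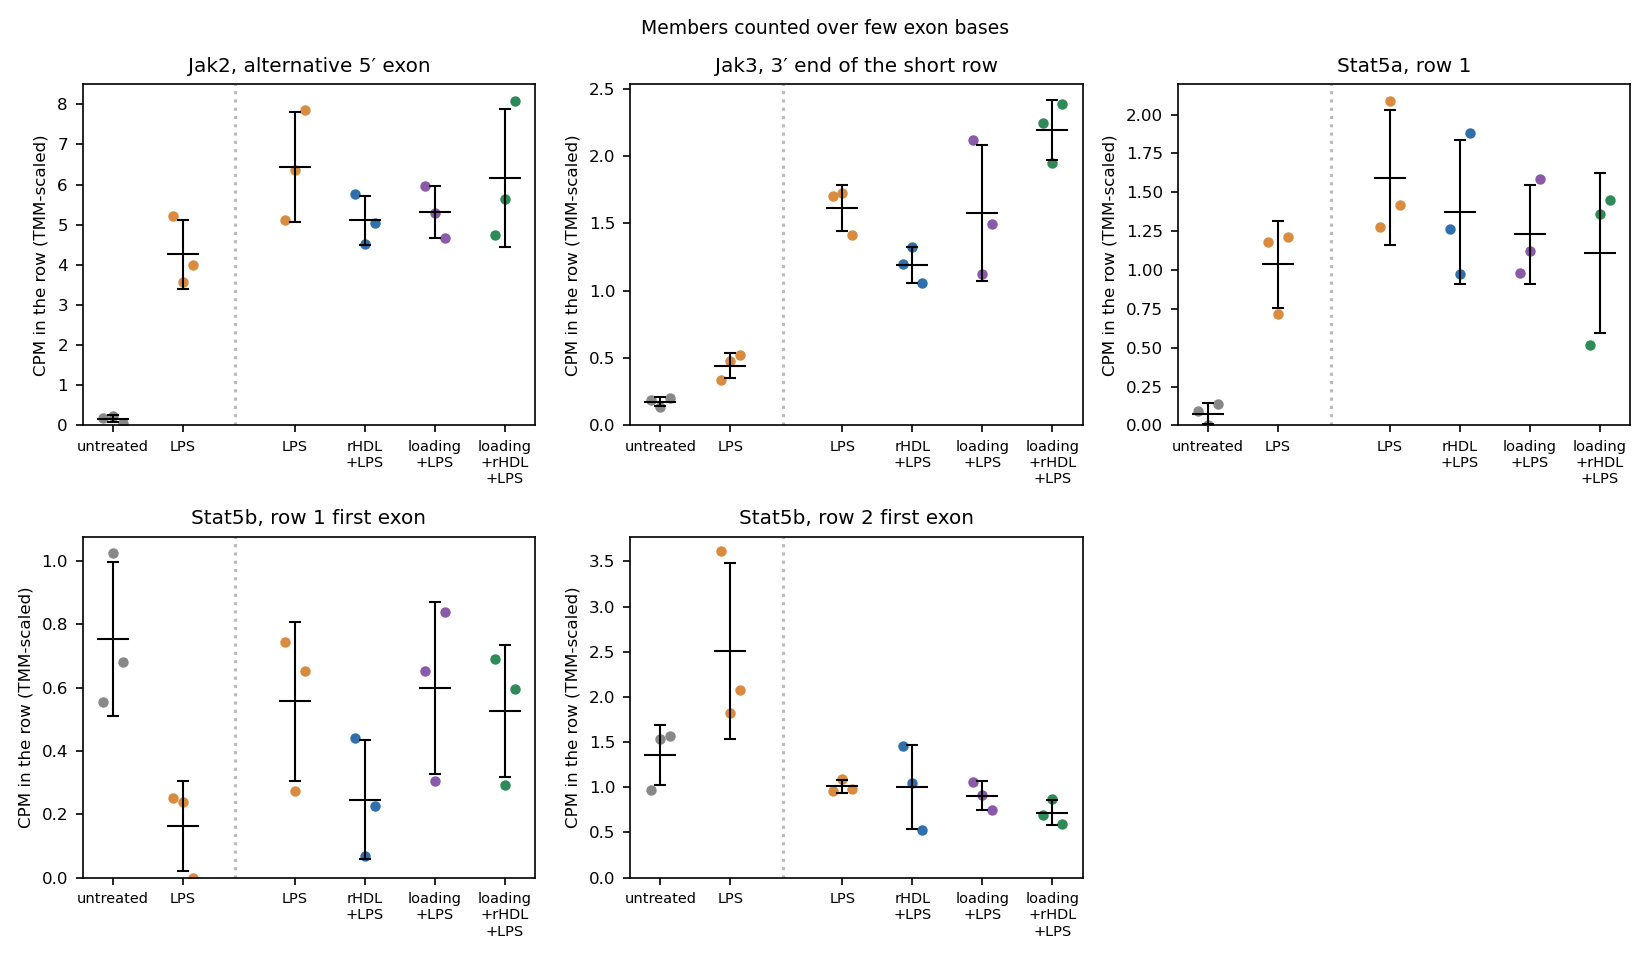
CPM in the short stretches of exon that were counted for Jak2, Jak3, Stat5a and the 2 rows of Stat5b, by library (points) with the group mean and SD (bars, n = 3). After LPS in the first table the Jak2 exon goes from at most 0.233 CPM to at least 3.57 CPM, and the downstream Stat5b row stands below its untreated level in every library.

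Treatment with rHDL before LPS, compared with LPS alone, asks whether the lipoprotein alters the response of cells that were not loaded. Of the 8 members tested, 3 fell (Stat2, Stat4 and Jak1) and 1 rose (Stat6). Over all 8965 genes tested 36.5% were called, 18.1% higher and 18.4% lower. The members' median was -0.31, against 0.03 over all genes. The authors' deposited table for the same comparison lists 1609 genes and none of the members. That table holds no RPKM ratio between 0.6665 and 1.5, so changes as small as those of Stat6 and Jak1 could not be listed. By the TMM-scaled fold Stat2 (0.64) and Stat4 (0.65) lay just outside that gap, yet they are not listed. That fold and the authors' RPKM ratio are unlike measures, and the reason was not tested. In bulk RNA, fewer cells of a type and less RNA per cell cannot be told apart.

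Stat2 was at 1221, 1047 and 1115 CPM with LPS alone and at 763, 668 and 735 CPM after rHDL. Every rHDL library was below every library with LPS alone, and the level was 0.64 of that without rHDL. The change was -0.64 ± 0.09 (edgeR, adjusted p = 4.86e-05), and across the 15 alternative settings it stayed between -0.70 and -0.53 and was always called. Stat4 fell from 16.5, 13.3 and 14.7 CPM to 10.8, 9.12 and 8.96 CPM, by 0.62 ± 0.17 on the log2 scale (edgeR, adjusted p = 0.00906). Its groups did not overlap either, and all 15 settings called it, with adjusted p up to 0.0467.

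Stat6 moved the other way. It was at 176, 206 and 190 CPM with LPS alone and at 229, 250 and 240 CPM after rHDL. All rHDL libraries were higher, by 0.33 ± 0.07 (edgeR, adjusted p = 0.00308) or 1.26-fold, and the call held in all 15 settings, with changes between 0.28 and 0.44.

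Jak1 stood at 1387, 1608 and 1454 CPM with LPS alone and at 1206, 1242 and 1209 CPM after rHDL. Its groups did not overlap, and the change was small, at -0.28 ± 0.09 (edgeR, adjusted p = 0.0234). The call was lost with scaling by library totals (-0.17, adjusted p = 0.228), without LPS replicate 2 (adjusted p = 0.1003) and without rHDL replicate 3 (adjusted p = 0.0695).

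The sparsely counted members were not called. Jak3 was at 1.70, 1.73 and 1.42 CPM with LPS alone and at 1.20, 1.32 and 1.05 CPM after rHDL. These ranges did not overlap, but the difference of -0.44 ± 0.26 did not pass the test (edgeR, adjusted p = 0.229). Differences were -0.33 ± 0.20 for Jak2, -0.24 ± 0.35 for Stat5a and -0.28 ± 0.31 for Stat5b. With standard errors this wide, changes of the size seen in Stat2 cannot be told from none for Stat5a and Stat5b.

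**Figure D3:**
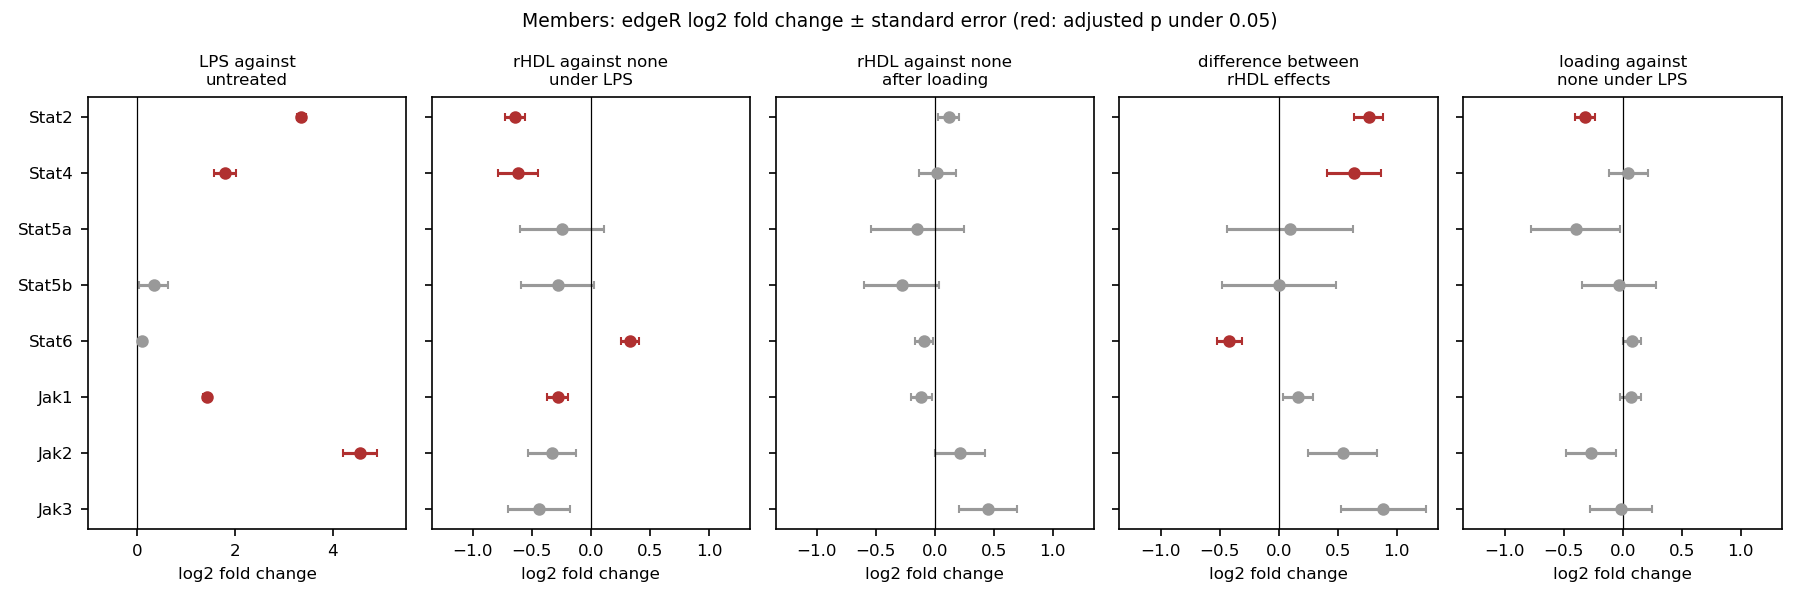
Log2 fold change (points) and standard error (bars) of each member tested, in the 5 comparisons; red marks an adjusted p under 0.05, and the first panel has a wider axis. Stat2 and Stat4 lie below 0 and Stat6 above 0 after rHDL, and no member is red for rHDL against none after loading. Scaled by library totals, Jak1 after rHDL, Stat4 in the difference and Stat2 for loading lose their calls. Stat6 after LPS, not called here, is called lower in that setting.

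After cholesterol loading, rHDL was compared with none in loaded cells. None of the 8 members was called by edgeR, and 0 had an unadjusted p under 0.05, beside 91 of 8965 genes (1.02%, with 0.424% higher and 0.591% lower) over the whole table and 1044 genes at that unadjusted p. DESeq2 called 0 members and 164 genes. The authors' deposited table for this comparison lists 47 genes and no member, with a like gap in its ratios (0.665 to 1.5). Stat2 was at 941, 854 and 912 CPM after loading and at 944, 895 and 1098 CPM after loading and rHDL. These ranges overlapped, with a difference of 0.12 ± 0.09 (edgeR, adjusted p = 0.652). Stat4 was at 16.6, 13.0 and 16.2 CPM and then 18.5, 11.5 and 16.5 CPM, a difference of 0.02 ± 0.16. Stat6 was at 188, 211 and 205 CPM and then 178, 200 and 190 CPM, a difference of -0.09 ± 0.07. Jak1 differed by -0.12 ± 0.09, with libraries at 1515, 1680 and 1467 CPM and then 1244, 1604 and 1454 CPM. Jak3 lay at 2.12, 1.12 and 1.49 CPM and then 2.25, 1.95 and 2.38 CPM, overlapping by 1 library, and its difference of 0.45 ± 0.24 was not called (edgeR, adjusted p = 0.509). Jak2 differed by 0.21 ± 0.21, Stat5a by -0.15 ± 0.40 and Stat5b by -0.28 ± 0.32.

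The difference between the rHDL effects was tested directly as the change in loaded cells minus that in cells without loading. It was called for Stat2 (0.76 ± 0.12, edgeR adjusted p = 0.000387), Stat4 (0.64 ± 0.23, adjusted p = 0.0492) and Stat6 (-0.42 ± 0.11, adjusted p = 0.00794). So 2 members were higher and 1 lower, where 16.0% of all genes were higher and 14.2% lower (30.2% in all). Stat2 and Stat6 kept the call in all 20 alternative settings. Stat4 lost it with scaling by library totals (adjusted p = 0.0905), without LPS replicate 1 (0.120) or 3 (0.0854), and without rHDL replicate 2 (0.0971) or 3 (0.106). It also lost it without loaded replicate 2 (0.109) or 3 (0.0635) and without replicate 1 (0.107) or 3 (0.0998) of loading with rHDL. Jak3 had the highest estimate, 0.89 ± 0.36, and was not called (adjusted p = 0.0775), except without loaded replicate 1 (1.18, adjusted p = 0.0244). Jak2 (0.54 ± 0.29), Jak1 (0.17 ± 0.13), Stat5a (0.10 ± 0.53) and Stat5b (0.00 ± 0.48) were not called.

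Loading itself, with LPS in both groups, was called for 1 of the 8 members, Stat2, which was lower by -0.32 ± 0.09 (edgeR, adjusted p = 0.0345). Over all genes 8.57% were called, 4.57% lower. The Stat2 libraries at 941, 854 and 912 CPM all lay below the 1221, 1047 and 1115 CPM with LPS alone. The call was lost with scaling by library totals (adjusted p = 0.0538), without LPS replicate 1 (0.145) or 3 (0.0940), and without loaded replicate 1 (0.0629), 2 (0.138) or 3 (0.106). The other 7 members ranged from -0.40 ± 0.38 for Stat5a to 0.08 ± 0.08 for Stat6.

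Within the second table the order of the groups differed between members. For Stat2 the rHDL group was lowest at 722 ± 48.9 CPM, apart from the loaded group at 903 ± 44.6, while loading with rHDL (979 ± 106) and LPS alone (1128 ± 88.0) overlapped their neighbours. For Stat4 the rHDL group (9.63 ± 1.03 CPM) was again apart from the next, LPS alone (14.9 ± 1.58), and the 3 other groups overlapped. Jak1 had the same lowest group (1219 ± 20.2 CPM) and 3 overlapping groups from 1434 to 1554 CPM. Stat6 was highest after rHDL (239 ± 10.7 CPM), and its other groups overlapped between 189 and 202 CPM. Jak3 was highest after loading and rHDL (2.19 ± 0.22 CPM), apart from LPS alone (1.62 ± 0.17). For Jak2, Stat5a and Stat5b every pair of neighbouring groups overlapped.

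Per kilobase of own exon, the level with LPS alone in the second table was 302.5 CPM for Jak1, 257 for Stat2, 77.6 for the Jak2 exon and 51.0 for Stat6. It was 10.7 for Jak3, 5.65 for Stat5a, 4.98 for Stat4 and 2.22 for Stat5b. Values from untranslated ends and alternative exons are not levels of the whole transcript.

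Over the 12 libraries of the second table the members' log2 CPM were also set against each other and against all genes tested, as a description with no p, since the libraries share groups. Stat2 and Stat4 varied together (Pearson r = 0.79), and both ran against Stat6 (r = -0.88 and -0.91). Predicted genes, with symbols of Gm and a number or with Rik, were passed over in ranking the genes most like a member. The genes most like Stat2 were Nlrc5, a regulator of MHC class I genes (r = 0.995), and Slfn5 (r = 0.990). For Stat4 they were Cmtm6 and Acaa1a (both r = 0.977), and for Stat6 they were Cdk18 (r = 0.989) and Slc38a7 (r = 0.984). The closest match was weaker for Jak1 (Serinc5, r = 0.935) and Stat5a (Klhl28, r = 0.925), and lowest for Stat5b (Xcr1, r = 0.863) and Jak2 (Slc30a4, r = 0.857).

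The rest of the pathway was read from fixed lists of receptors, ligands, inhibitors, partners and target genes. Over all genes tested with LPS, 35.3% were called higher and 37.6% lower, 72.9% in all. List counts near these shares say nothing particular of the pathway. With LPS, all 12 ligands tested rose, with a median of 8.02. Csf3 and Il12a among them were at 0 in all untreated libraries, so the sizes of their rises were not measured. Of 21 receptor chains 12 rose, among them both chains of the type I interferon receptor, Ifnar1 by 1.15 ± 0.08 and Ifnar2 by 1.66 ± 0.08. Il4ra, the receptor chain that recruits Stat6, rose by 1.52 ± 0.08, and Il2rg, the common gamma chain that Jak3 binds, by 1.53 ± 0.07. There were 7 receptor chains that fell, among them Il6ra (-3.66 ± 0.12) and Il21r (-2.88 ± 0.14). Of 16 inhibitors 11 rose and 2 fell. The feedback inhibitors Cish, a target of Stat5, and Socs3, a target of Stat3, rose by 9.51 ± 0.20 and 7.88 ± 0.13, and Usp18, which blocks the interferon receptor, rose by 5.23 ± 0.17. All 13 ISGF3 targets tested rose, a list that holds Stat2 itself. Among STAT3 targets 9 of 11 rose, and Ccnd1 was the 1 that fell (-3.75 ± 0.14). Of 6 STAT5 targets 5 rose, among them Pim1 (4.34 ± 0.09), and Bcl6, a repressor, fell by 1.98 ± 0.15. Socs2 rose as well, from 0 in all untreated libraries to 1.52, 1.03 and 0.953 CPM. Its estimate of 7.20 ± 0.79 starts from 0 counts, so it is no measured size. Of 10 STAT6 targets 7 rose. Of 7 partners 3 rose and 2 fell, and Irf9, counted over 9% of its longest row, rose by 1.94 ± 0.30.

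With rHDL before LPS, 12 of 23 receptor chains fell and 2 rose, with a median of -0.40. Over all genes tested 18.4% were lower and 18.1% higher, shares to set beside the counts of every list after rHDL. Osmr, the oncostatin M receptor, went from 44.0, 32.2 and 39.0 CPM to 5.18, 3.69 and 3.39 CPM, a change of -3.21 ± 0.19. Every rHDL library was below every library with LPS alone. Il21r fell by 2.72 ± 0.20, Il4ra by 1.26 ± 0.10, Ifnar1 by 0.81 ± 0.07 and Ifnar2 by 0.66 ± 0.07. Il7r rose by 0.99 ± 0.10. Loaded cells given rHDL had Osmr at 17.5, 17.5 and 21.5 CPM beside 14.9, 9.28 and 11.9 CPM with loading alone. That difference of 0.64 ± 0.18 was not called (edgeR, adjusted p = 0.125), although the ranges did not overlap.

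Of 11 ligands, 5 rose after rHDL and 3 fell. Csf2, which encodes GM-CSF, rose from 1.81, 3.54 and 1.85 CPM to 14.3, 27.5 and 22.8 CPM, by 3.12 ± 0.37. Il23a rose by 2.48 ± 0.25, Osm by 1.61 ± 0.12, Csf3 by 1.40 ± 0.25 and Il12b, the shared chain of IL-12 and IL-23, by 1.29 ± 0.09. Ebi3 (-0.66 ± 0.08), Il27 (-0.58 ± 0.14) and Il10 (-0.49 ± 0.12) fell. Osm and its receptor Osmr thus changed in opposite directions.

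Of 15 inhibitors 1 rose and 4 fell, a share near the 36.5% called over all genes. Cish rose from 39.3, 45.7 and 37.8 CPM to 108, 109 and 107 CPM, by 1.39 ± 0.11, and its libraries after loading and rHDL were at 38.8, 41.9 and 36.5 CPM. Ptpn1, a phosphatase that acts on Janus kinases, fell by 1.05 ± 0.08 and Usp18 by 1.06 ± 0.21. Socs3 was at 2620, 2898 and 2732 CPM with LPS alone and at 2930, 2593 and 2599 CPM after rHDL, ranges that overlapped (-0.02 ± 0.07, adjusted p = 0.824). Of 7 partners 2 rose and 2 fell. Irf9 was one of those that fell (-0.60 ± 0.19, edgeR adjusted p = 0.0236), a call that was lost in 8 alternative settings. These were DESeq2, library totals, all genes with any count, its largest row, thinned counts, and leaving out LPS replicate 2 or rHDL replicate 1 or 3.

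All 13 ISGF3 targets tested, Stat2 among them, fell after rHDL, with a median of -0.80. Oas3, an antiviral enzyme, went from 1256, 981 and 1155 CPM to 623, 458 and 567 CPM (-1.04 ± 0.13), and Ifi44 fell by 1.21 ± 0.21. The number called was 8 without LPS replicate 1, without rHDL replicate 2 or without rHDL replicate 3. Of 11 STAT3 targets 6 fell and 0 rose, with Il4ra (-1.26 ± 0.10) and Ccnd1 (-1.08 ± 0.15) at the smallest p. STAT5 targets split, with Osm and Cish higher and Bcl6 (-0.87 ± 0.08) and Ccnd2 (-0.93 ± 0.11) lower among 5 tested. STAT6 targets split as well: of 9 tested, the chemokines Ccl17 (2.74 ± 0.18) and Ccl22 (1.10 ± 0.11) rose, and 5 fell, led by Ccl24 (-2.86 ± 0.18). The rise of Stat6 itself thus stood beside targets in both directions. Lists share genes: Il4ra is on 3 of them, and Cish, Osm and Usp18 are on 2 each.

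**Figure D4:**
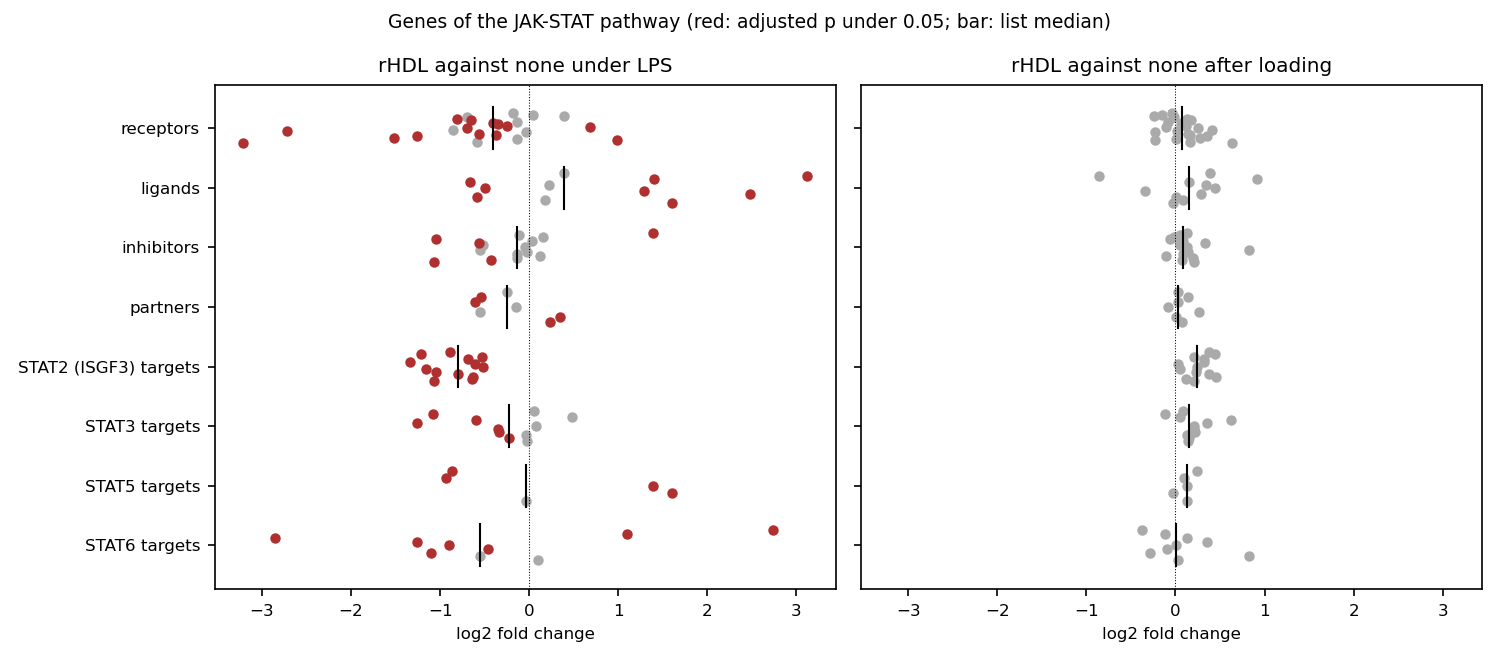
Log2 fold change of each gene tested on the 8 pathway lists (points; red, adjusted p under 0.05; bar, list median) for rHDL against none under LPS, on the left, and after loading, on the right. On the left all 13 ISGF3 targets lie below 0 and receptors reach -3.21, and on the right no gene of these lists is red. With the replicate number as a block, 7 ISGF3 targets, 3 receptor chains and 2 ligands were called after loading.

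After loading, rHDL gave 0 called genes on each of the 8 lists in edgeR, with medians from 0.01 to 0.25. Of the 85 genes on them, 18 had an unadjusted p under 0.05, where 1044 of 8965 genes (11.6%) did. DESeq2, and edgeR with all genes that have any count, each called 2 receptor chains and 2 ligands, and library totals 1 ligand. With the replicate block edgeR called 7 ISGF3 targets, 3 receptor chains and 2 ligands. The difference between the rHDL effects was called higher for 16.0% of all genes tested and lower for 14.2%. On the lists it was called higher for 12 of 13 ISGF3 targets and 12 of 23 receptor chains, and lower for 2 receptor chains. Among ligands 3 were higher and 4 lower, and among inhibitors 4 and 1. Loading alone, under LPS, was called lower for 4.57% of all genes tested and higher for 3.99%. On the lists it gave 6 receptor chains lower and 0 higher, with Osmr (-1.66 ± 0.17) and Il4ra (-0.71 ± 0.10) at the smallest p. It gave 2 lower ISGF3 targets, Stat2 and Oas3 (-0.45 ± 0.13), and neither was called without LPS replicate 1 or 3 or without loaded replicate 1, 2 or 3. That count was 8 with all genes that have any count, 4 with the 2 groups alone, 11 with the replicate block and 1 with library totals, and 10 of the 13 had an unadjusted p under 0.05, against 23.7% of all genes.

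T cells and natural killer cells are known for Stat4 and Jak3, and dendritic cells also express Stat4, so their markers are given beside these genes. In the second table Cd3e, Nkg7 and Ncr1 were at 0 in all libraries. Cd8a and Klrb1c were at 0 too, but had only 31 and 9 bases of their own. The sum of 10 T and natural killer cell markers was nearly all Cd4, and 8 of the 10 were at 0 with LPS alone. Cd4 was at 3.19, 3.54 and 4.47 CPM with LPS alone and at 3.35, 3.20 and 3.09 CPM after rHDL. The sum was 3.19 to 4.58 CPM with LPS alone, 3.09 to 3.41 after rHDL, 3.16 to 3.67 after loading and 2.82 to 3.83 after both. The sum of 8 dendritic cell markers, most of it from Itgax, was 70.6 to 95.1, 102 to 117, 77.7 to 159 and 74.7 to 91.0 CPM in the same order. Flt3 was at 0 with LPS alone and after loading. In the second table neutrophil markers summed to 13.1 to 16.0 CPM with LPS alone and 3.24 to 5.15 CPM after rHDL. B cell markers summed to under 1.31 CPM in every library. In the first table the dendritic cell sum was 356 to 506 CPM untreated and 575 to 739 CPM after LPS. Both dendritic cell markers tested there rose, Itgax by 0.57 ± 0.13 and Xcr1 by 1.30 ± 0.32. The neutrophil sum there was 85.9 to 105 CPM untreated and 83.8 to 91.3 CPM after LPS, and 2 of 3 markers tested rose. The T and natural killer cell sum there reached at most 2.18 CPM untreated and 1.85 CPM after LPS. The part of dendritic cell or neutrophil RNA in the values of Stat4 was not tested in either table.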

How the data were processed

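RNA-seq was made from 18 libraries in 6 groups of 3. Per the submitters' processing notes, the authors used cutadapt, HISAT2, featureCounts of Subread, DESeq2 and mm10, with versions not stated there. The deposited counts are raw reads per transcript row, 32850 rows for 24059 symbols, with no normalization by the authors. All 6696 rows without exon bases of their own had 0 counts. GENCODE M21 (GRCm38) gave the features. The authors' deposited comparison tables hold log2 fold changes, p-values adjusted in DESeq2 and ratios of RPKM, of which only the listed genes, the ratios nearest to 1 and the largest adjusted p (0.0497 and 0.0475) were used.

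Rows were summed per symbol and tested with edgeR 4.0.16 in R 4.3.3 (filterByExpr with a minimum count of 10, TMM, glmQLFit and glmQLFTest). The 2 tables were fitted apart, and the 12 libraries of the second shared 1 fit. The standard error is the log2 fold change divided by the square root of F. Intervals for summed counts and shares of reads are exact and cover counting error only. Replicate libraries differed beyond counting noise in every pair (chi-square per degree of freedom at least 3.00), so each counts once. The test was first run on simulated data in which most genes were unchanged, unlike the comparison with LPS. That run does not check the scaling, and its outcome is not given here.

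The members and lists were chosen with earlier results of these data known. The rule for named genes takes all members, up to 4 genes per list and comparison with the smallest p, and for each member the 2 genes most like it. The genes printed are a part of these, and a few outside the rule, picked after their values and their stability were seen. Alternatives were DESeq2 1.42.0, its size factors, library totals, 2 other filters, the replicate number as a block, only the groups compared, the largest row per symbol, thinned counts and leaving out each library. Marker lists of stromal cells and of mast, red and megakaryocyte cells are in the closing section.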

Additional observations from a re-analysis of the deposited data

Results flagged for a closer look

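The effect of rHDL differed between loaded cells and cells without loading, by the test of the difference itself (edgeR, effect after loading minus effect without, log2), for 30 of the members and named genes. Among the members these were Stat2 (0.76), Stat4 (0.64) and Stat6 (-0.42). Among receptor chains they were Osmr (3.85), Il21r (2.74), Il6ra (1.80), Il4ra (1.61), Il13ra1 (0.95), Ifnar1 (0.94), Ifnar2 (0.82), Il2rg (0.70) and Il7r (-1.22). Among ligands they were Il10 (0.94), Ebi3 (0.82), Il27 (0.59), Il12b (-1.63), Osm (-1.63), Il23a (-2.20) and Csf2 (-3.99). Among inhibitors and targets they were Usp18 (1.27), Ptpn1 (0.99), Cish (-1.26), Ifi44 (1.65), Oas3 (1.28), Ccl24 (2.99), Ccl17 (-3.12), Ccl22 (-1.21), Bcl6 (1.11), Ccnd2 (1.03) and Ccnd1 (0.96). A positive value marks a gene that rHDL lowered less, or raised more, in loaded cells. Of these calls, those of Stat4 and Il27 were lost in some settings. That of Il27 was lost with library totals and without LPS replicate 1 or 3, rHDL replicate 2 or 3, any one loaded replicate, or replicate 1 or 3 of loading with rHDL. Both effects of rHDL in each difference rest on 3 libraries a group. Named genes were picked partly by a small p in the comparisons, this difference among them. The number 30 is therefore no measure of the pathway, and over all 8965 genes tested 30.2% were called.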

How the results depend on the processing

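Over 2218 values of members and named genes under the alternatives, 1 turned its direction while called: Stat6 under LPS, at -0.60 with library totals and 0.11 otherwise. In 39 others, called in neither fit, the sign changed (27 with a library left out, 12 in other settings). The calls lost in at least 1 setting were, beside those given with the members, Irf9 and Il27 and, for loading, Bcl6, Ccnd2, Ifnar1, Il21r, Il23a and Oas3. Genes called for rHDL after loading numbered 91, against 164 with DESeq2, 176 with all genes that have any count, 486 with the replicate number as a block and 42 with the 2 groups alone, and 30 to 123 with a library left out. Without any of the loaded replicates 1, 2 and 3 they numbered 46, 30 and 35, and without replicate 2 or 3 of loading with rHDL 55 and 56. For loading, 768 genes were called, against 1651 with the block and 1216 with the 2 groups alone, and 350 to 594 with a library left out (365 and 381 without LPS replicate 1 or 3, and 477, 396 and 350 without loaded replicate 1, 2 or 3); 1 member was called, 0 with library totals and 0 to 1 with a library left out. The replicate block gave the same number of members called in each comparison (4, 4, 0, 3 and 1). It called 7 ISGF3 targets, 3 receptors and 2 ligands for rHDL after loading, where DESeq2 and the filter on any count each called 2 receptors and 2 ligands. For loading the block called 11 ISGF3 targets and 12 receptors. In the second table same-numbered libraries correlated at 0.14 to 0.39 for number 1, 0.20 to 0.31 for number 2 and -0.02 to 0.16 for number 3 (13 of 18 pairs over 0.1; median 0.17, against -0.07 for other numbers), and in the first at -0.06 to 0.05 (3 pairs). Not every pair was over 0.1, so the numbers were not taken to pair the samples, although 9 of 12 libraries of the second table (1 of 6 in the first) correlated best with their own number, a hint from the data and not the design.

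With library totals in place of TMM, the median over all genes was -0.77 for LPS, 0.14 for rHDL, -0.20 for the difference and 0.09 for loading. The share of higher calls went from 48.4% to 18.7%, from 49.5% to 66.3%, from 53.0% to 32.4% and from 46.6% to 71.1%, and for rHDL after loading from 41.8% to 27.2%. The few exon bases that were counted limit Jak2, Jak3, Stat5a and Stat5b most, and Stat3 could not be measured from these counts.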

Other observations

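Stromal markers summed to 57.8 to 59.6 CPM with LPS alone and 108 to 135 CPM after rHDL. Vwf made up nearly all of that, at 54.7, 56.1 and 56.7 CPM with LPS alone and 106, 120 and 133 CPM after rHDL, while Col1a2 was at 1.17, 1.63 and 1.31 and then 0.759, 0.905 and 1.05 CPM. In the libraries loaded without rHDL, Col3a1 was at 0.408, 0.102 and 12.3 CPM. Markers of mast, red and megakaryocyte cells, mostly Pf4, summed to 54.5 to 61.4 CPM with LPS alone and 32.4 to 43.4 CPM after rHDL.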
